A study of Mus musculus with 16 samples.

Results

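The 33 genes described here were listed for fatty acid uptake and beta-oxidation. Most encode proteins that bring fatty acids into the muscle fibre or burn them in its mitochondria. The genes were taken by symbol from a list of pathway genes, with no threshold on a measured value. All 33 were measured, each by the brightest probe of its gene. All 33 passed the filter on dim probes (3 or more of the 16 arrays had to read well above background), and each chosen probe was above background on all 16. They are 33 of the 22126 features tested, where a feature is 1 named gene or 1 probe without a gene name.

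Fatty acids reach the fibre after lipoprotein lipase frees them from circulating triglyceride, and they cross the membrane with the help of Cd36 and the Slc27 family. They are activated to acyl-CoA, carried across the mitochondrial membranes as carnitine esters, and shortened by repeated turns of dehydrogenation, hydration, dehydrogenation and thiolytic cleavage. The electrons pass through electron transfer flavoprotein to the respiratory chain, so the pathway runs only while oxygen is used. The soleus is a postural hindlimb muscle rich in slow, oxidative fibres that rely on this pathway.

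Of the 33 genes, 26 had a promoter window in the RefSeq table (GRCm38.p6), with 250 bases before and 50 after the annotated start site. Some genes have several starts, so there were 29 windows. Windows of Cpt1b, Acaa2, Acat1, Decr1, Lpl, Crat and Acot13 were not used here. Both strands were searched for 3 motifs of nuclear receptors that act on genes of fat oxidation. The oestrogen-related receptor motif TCAAGGTCA was in 0 of the 29 windows and in 0.423% of all 32851 windows. The direct repeat bound by the PPAR and RXR pair, AGGTCANAGGTCA, was in 0 windows exactly and in 0 with 1 mismatch, against 0.0396% and 0.554% of all windows. Their shared half-site AGGTCA was in 4 windows, those of Acadm, Acadvl, Cd36 and Echs1 (13.8%, against 16.3% of all windows). A match is a description of letters and not a binding site.

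The windows below are of members whose values are described later. Hadha and Hadhb, the 2 subunits of the mitochondrial trifunctional protein, are read away from each other from start sites 273 bases apart. The Hadhb window (chr5:30155003-30155302, plus strand) and the Hadha window (chr5:30154931-30155230, minus strand) therefore share 228 bases, which are in capitals in the Hadhb sequence. For Cd36 (chr5:17835847-17836146, minus strand) and Acadvl (chr11:70015379-70015678, minus strand) the capitals mark the half-site, which lies on the reverse strand in Cd36 and on the gene's strand in Acadvl. Each sequence is written 5′ to 3′ on the strand of its gene.
Hadhb: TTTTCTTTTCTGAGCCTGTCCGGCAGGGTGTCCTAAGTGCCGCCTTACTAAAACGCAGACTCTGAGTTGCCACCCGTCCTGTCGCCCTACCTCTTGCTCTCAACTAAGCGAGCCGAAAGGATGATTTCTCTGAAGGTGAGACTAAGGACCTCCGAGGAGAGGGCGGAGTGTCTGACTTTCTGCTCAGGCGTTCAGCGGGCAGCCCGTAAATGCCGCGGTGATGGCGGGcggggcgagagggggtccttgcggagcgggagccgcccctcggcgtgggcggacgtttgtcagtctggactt
Cd36: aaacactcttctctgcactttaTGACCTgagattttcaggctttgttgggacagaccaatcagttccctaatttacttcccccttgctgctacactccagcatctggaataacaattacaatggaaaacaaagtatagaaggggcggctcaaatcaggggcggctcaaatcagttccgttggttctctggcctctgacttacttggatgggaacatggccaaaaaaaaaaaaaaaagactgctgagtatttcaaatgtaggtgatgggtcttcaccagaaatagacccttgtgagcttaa
Acadvl: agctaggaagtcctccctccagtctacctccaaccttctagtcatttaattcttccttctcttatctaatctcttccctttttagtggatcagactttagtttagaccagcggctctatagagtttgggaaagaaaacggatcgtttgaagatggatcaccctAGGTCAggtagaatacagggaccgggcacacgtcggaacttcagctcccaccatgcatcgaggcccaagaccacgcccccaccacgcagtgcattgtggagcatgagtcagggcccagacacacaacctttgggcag

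RNA from the soleus of male mice was measured on 1-colour Agilent arrays at 4 times of a hypoxia protocol. The baseline, day 0, comprised 6 arrays of 4 RNA samples. Days 3, 7 and 14 comprised 3, 3 and 4 RNA samples with 1 array each. In the study's design the oxygen level came down gradually during the first week, to 10%, so that days 3 and 7 lie in the lowering phase, and it was held there in the second. The treatment label reads hypoxia at all 4 times, and the labels give neither strain nor age. The design states an n of 4 at each time, and samples of days 3 and 7 beyond those given were not analysed here. Nothing in the labels says whether RNA samples came from separate mice, so the p-values measure the spread between these samples, which may be technical.

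Levels are log2 intensities minus the 75th percentile of the array, so a level of 0 is that percentile. Levels of different genes come from different probes and are not set against each other. The arrays lay on 2 slides, and the first principal component, with 30.4% of the variance, separated them (-42.7 to -17.28 on slide 1 and 16.3 to 45.86 on slide 2). Slide 1 held days 3 and 7 and day 0 RNA samples 1 and 2, and slide 2 held day 14 and all 4 day 0 samples. Between 48.3 and 55.3% of spots were well above background on slide 1, and 37.9 to 42.9% on slide 2. The 2 day 0 RNA samples run on both slides carry every comparison of day 3 or 7 with day 0, and that of day 14 with day 7. For the 33 genes, those samples read higher on slide 2 than on slide 1, by a median of 0.12 in sample 1 (22 genes above 0 and 11 below) and 0.24 in sample 2 (23 and 10). The medians over all features were 0.11 and 0.15. Day 3 RNA sample 4 stood apart from the other 2 day 3 samples in these genes, as given below.

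The tissue label was checked with 10 muscle markers, all measured, whose summed log2 level was 12.93 to 13.33 on the 16 arrays. Whether less RNA of a gene in whole muscle reflects fewer cells of a type or less RNA per cell cannot be told apart. The days were compared in 1 limma model across all features with slide as a term, and a gene passed at a Benjamini-Hochberg adjusted p under 0.05 over all 22126 features. Differences are on the log2 scale (the later day minus the earlier) and are given ± their standard error (SE), and n is the number of RNA samples per day given above. Shares of all features called refer to the adjusted p. Where genes are counted at an unadjusted p under 0.05, the share of all features at that cut was not counted.

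Day 7 against day 0 asks what had changed by the end of the week in which oxygen was lowered. Of the 33 genes, 13 were higher and 1 was lower, against a background of 15.6% of all features higher and 8.14% lower. Their median difference was 0.42, against 0.09 over all features, and 28 of the 33 differences were above 0, beside 57.2% of all features. The genes that rose included at least 1 from each of the 7 roles used to order them here. They ranged from the fatty acid translocase Cd36 to the flavoprotein dehydrogenase Etfdh. Neither Cd36 nor Etfdh passed without the day 0 arrays of slide 1, as given below, and the 1 gene that fell was also an uptake gene. Acss1 rose the most, 2.27-fold, followed by Decr1 at 2.11-fold and Eci2 at 1.95-fold. At day 14 against day 0, 0 of the 33 passed in either direction (background 0.294% higher and 0.108% lower), and their median difference was -0.09.

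**Figure D1:**
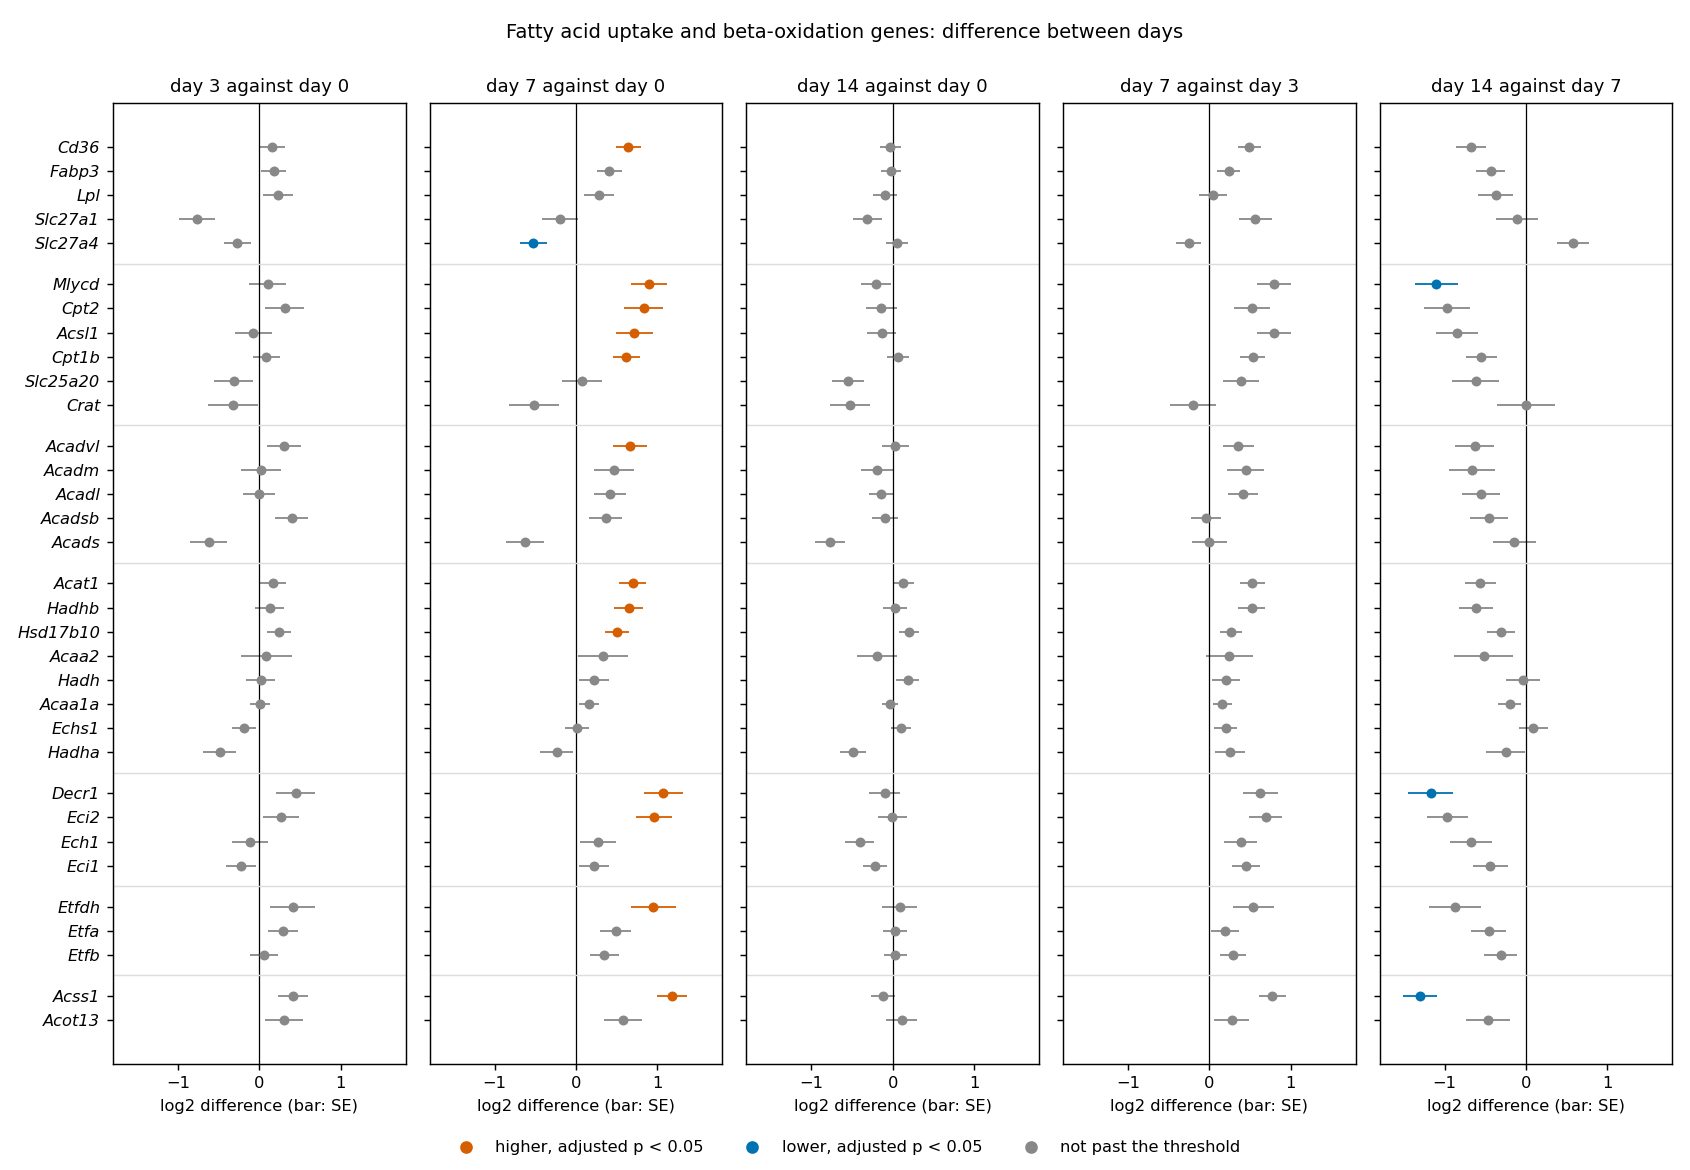
Log2 difference (x axis, later day minus earlier day) of each of the 33 genes in 5 comparisons, from the model across all features; bars are SE, genes are grouped by role, and coloured points passed at an adjusted p under 0.05. Most points lie right of 0 at day 7 against day 0 (28 of 33) and left of 0 at day 14 against day 7 (31 of 33). Over all features, 57.2% and 46.5% of the differences were above 0 in these comparisons.

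The count at day 7 depends on few arrays. The share of all features called, 23.8% with all arrays, moved too. Leaving out day 0 RNA sample 1 gave 6 calls among the 33 genes and 11.8% of all features, and leaving out day 0 RNA sample 2 gave 0 and 0.466%. Leaving out either the first or the second day 7 RNA sample also gave 6, with 15% and 11.8% of all features. All of these calls were upward. Leaving out day 3 RNA sample 4 gave 18 higher and 2 lower, with 17.1% and 9.04% of all features. Acadl, Acadm, Acot13, Etfa and Fabp3 were then also higher, and Acads was also lower. That sample was singled out by its low values in these genes. Without the slide term 9 genes were higher, 8 of them among the 13 (background 9.14% higher and 5.7% lower). With the day 0 arrays of slide 1 left out, which sets slide 1 days against slide 2 baseline samples, 5 were higher, and the background was then 7.47% higher and 10% lower. All 14 called genes kept their sign in both of these settings. Acss1, Decr1 and Hadhb passed in both, as with all arrays and the slide term. The differences of these 3 were 0.68, 0.69 and 0.51 when the day 0 arrays of slide 1 were left out. The other 11 lost their call in that setting. Cpt2 was then at 0.62, Etfdh at 0.69, Eci2 at 0.53, Cpt1b at 0.398 and Acat1 at 0.396, and the remaining 6 are given with their values.

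**Figure D2:**
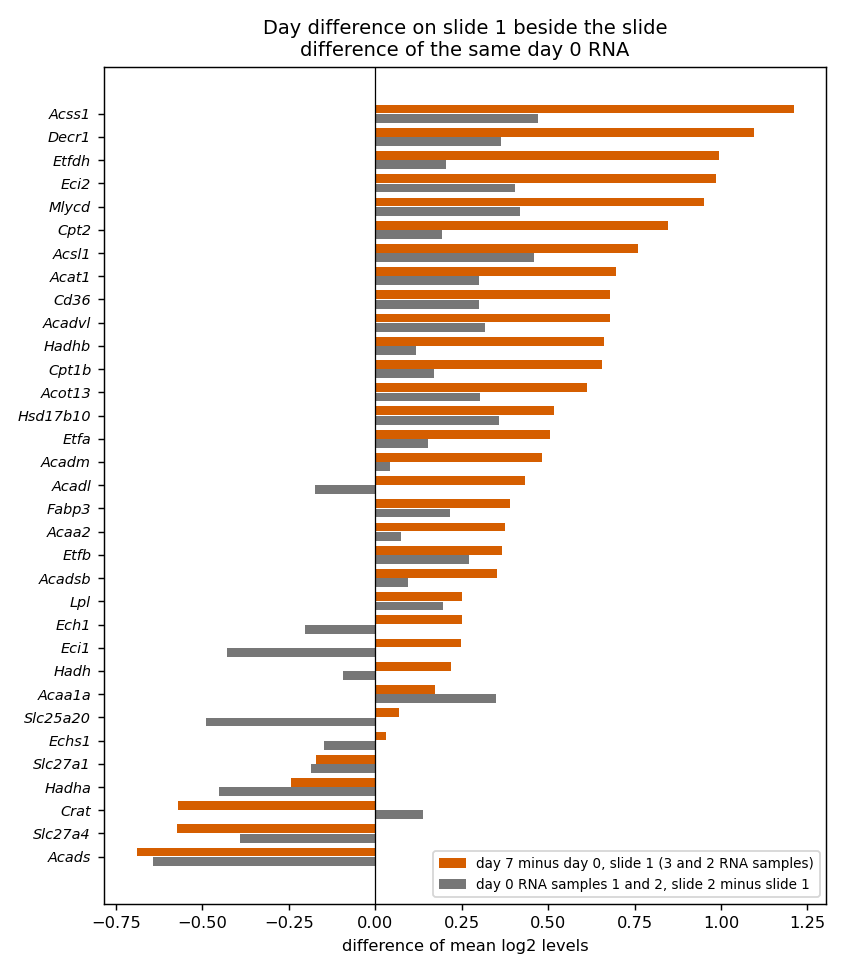
For each of the 33 genes, the difference of mean log2 levels between day 7 and day 0 on slide 1 (orange) and, for the same 2 day 0 RNA samples, slide 2 minus slide 1 (grey). Both bars use the same day 0 arrays of slide 1, which enter each with a minus sign; for Acss1 the bars reach 1.21 and 0.47, and for Acadl 0.43 and -0.17.

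Among the uptake genes, Cd36, which binds long-chain fatty acids at the cell surface, rose at day 7. On slide 1 its level was 4.61 and 4.36 at day 0, 4.87, 4.80 and 4.35 at day 3 and 5.32, 5.18 and 5.0 at day 7. All 3 day 7 samples lay above all other arrays of slide 1, and the difference from day 0 was 0.65 ± 0.16 (SE, adjusted p = 0.012). It was 0.31 without the day 0 arrays of slide 1 and 0.44 without the slide term, and passed in neither. On slide 2 it was 4.82, 4.96, 4.74 and 4.82 at day 14, against 4.85, 4.73, 4.78 and 5.09 at day 0, and these ranges overlapped (difference -0.03 ± 0.13, adjusted p = 0.929). Slc27a4, a fatty acid transport protein with acyl-CoA synthetase activity, was the 1 gene that fell at day 7. It read -0.65 and -0.63 at day 0, -0.76, -1.15 and -0.97 at day 3 and -1.27, -1.37 and -0.999 at day 7. The 3 day 7 samples lay below both day 0 samples (difference -0.52 ± 0.17, adjusted p = 0.0365), but without the day 0 arrays of slide 1 the difference was -0.07 (adjusted p = 0.766, range over 24 alternatives 0.015 to 0.766). Its level on slide 2 was -1.14, -1.07, -0.91 and -1.22 at day 14, against -1.14, -0.92, -1.02 and -1.48 at day 0, also overlapping (difference 0.05 ± 0.13, adjusted p = 0.862).

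Fabp3, the fatty acid binding protein of heart and muscle cytosol, did not pass. Its level on slide 1 was 9.58 and 9.55 at day 0, 9.85, 9.94 and 9.37 at day 3 and 9.90, 10.14 and 9.82 at day 7. The day 7 samples lay above both day 0 samples without passing the test (difference 0.41 ± 0.15, adjusted p = 0.069). It was 9.77, 9.84, 9.56 and 9.68 at day 14, against 9.77, 9.79, 9.60 and 9.78 at day 0 on slide 2, overlapping. For Lpl, the lipase that frees fatty acids at the vessel wall, slide 1 gave 7.71 and 7.41 at day 0, 7.93, 8.07 and 7.28 at day 3 and 7.93, 7.81 and 7.69 at day 7. These ranges overlapped (difference 0.28 ± 0.19, adjusted p = 0.305), as did those of slide 2, at 7.71, 7.54, 7.59 and 7.55 at day 14, against 7.79, 7.72, 7.48 and 7.77 at day 0. Slc27a1, a second transport protein, had the lowest difference of the 33 at day 3, -0.76 ± 0.22 (SE, adjusted p = 0.058), and did not pass on any day.

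Activation and the carnitine shuttle had the most genes that rose at day 7, 4 of 6 (median 0.67). Of all features 15.6% were higher, and of those with a mean level above 5, as in these 4 genes, 32.4% were. All 4 (Mlycd, Cpt1b, Cpt2 and Acsl1) lost their call without the day 0 arrays of slide 1. Mlycd removes malonyl-CoA, the inhibitor of carnitine palmitoyltransferase 1. On slide 1 it was at 6.07 and 5.77 at day 0, 6.18, 6.53 and 5.52 at day 3 and 6.87, 6.95 and 6.80 at day 7. The 3 day 7 samples lay close together above every other array of that slide, and the difference from day 0 was 0.90 ± 0.23 (SE, adjusted p = 0.0133). This call was lost without the day 0 arrays of slide 1, at 0.415, and without the slide term, at 0.61. The slide 2 levels were 5.998, 6.45, 6.38 and 6.18 at day 14, against 6.41, 6.27, 6.49 and 6.65 at day 0, overlapping (difference -0.21 ± 0.18, adjusted p = 0.548).

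Cpt1b is the muscle form of carnitine palmitoyltransferase 1, which commits acyl groups to the mitochondrion. Its slide 1 levels were 5.38 and 5.26 at day 0, 5.62, 5.65 and 5.06 at day 3 and 6.11, 6.02 and 5.79 at day 7. The day 7 samples were the highest of the slide (difference 0.62 ± 0.17, adjusted p = 0.0191). Slide 2 gave 5.69, 5.74, 5.51 and 5.63 at day 14, against 5.56, 5.42, 5.51 and 5.81 at day 0, overlapping (difference 0.07 ± 0.14, adjusted p = 0.813). Cpt2 returns the acyl group to CoA on the inner side. It read 5.08 and 4.87 at day 0, 5.43, 5.81 and 4.66 at day 3 and 5.90, 5.95 and 5.61 at day 7 on slide 1, where 1 day 3 sample reached into the day 7 range (day 7 minus day 0, 0.83 ± 0.24, adjusted p = 0.0246). Levels on slide 2 were 5.05, 5.22, 5.12 and 4.84 at day 14, against 5.20, 5.14, 5.07 and 5.38 at day 0, overlapping (difference -0.14 ± 0.19, adjusted p = 0.714).

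The other activation and shuttle genes were mixed. Acsl1, the main long-chain acyl-CoA synthetase of muscle, rose by 0.72 ± 0.23 (SE, adjusted p = 0.0352) at day 7, but the difference was 0.198 without the day 0 arrays of slide 1 and 0.405 without the slide term, passing in neither, and a second probe of the gene differed by -0.33 between days 7 and 0 on slide 1. Slc25a20, the carnitine carrier, and Crat, which links acetyl groups to carnitine, had day 7 differences of 0.07 and -0.52 and did not pass.

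**Figure D3:**
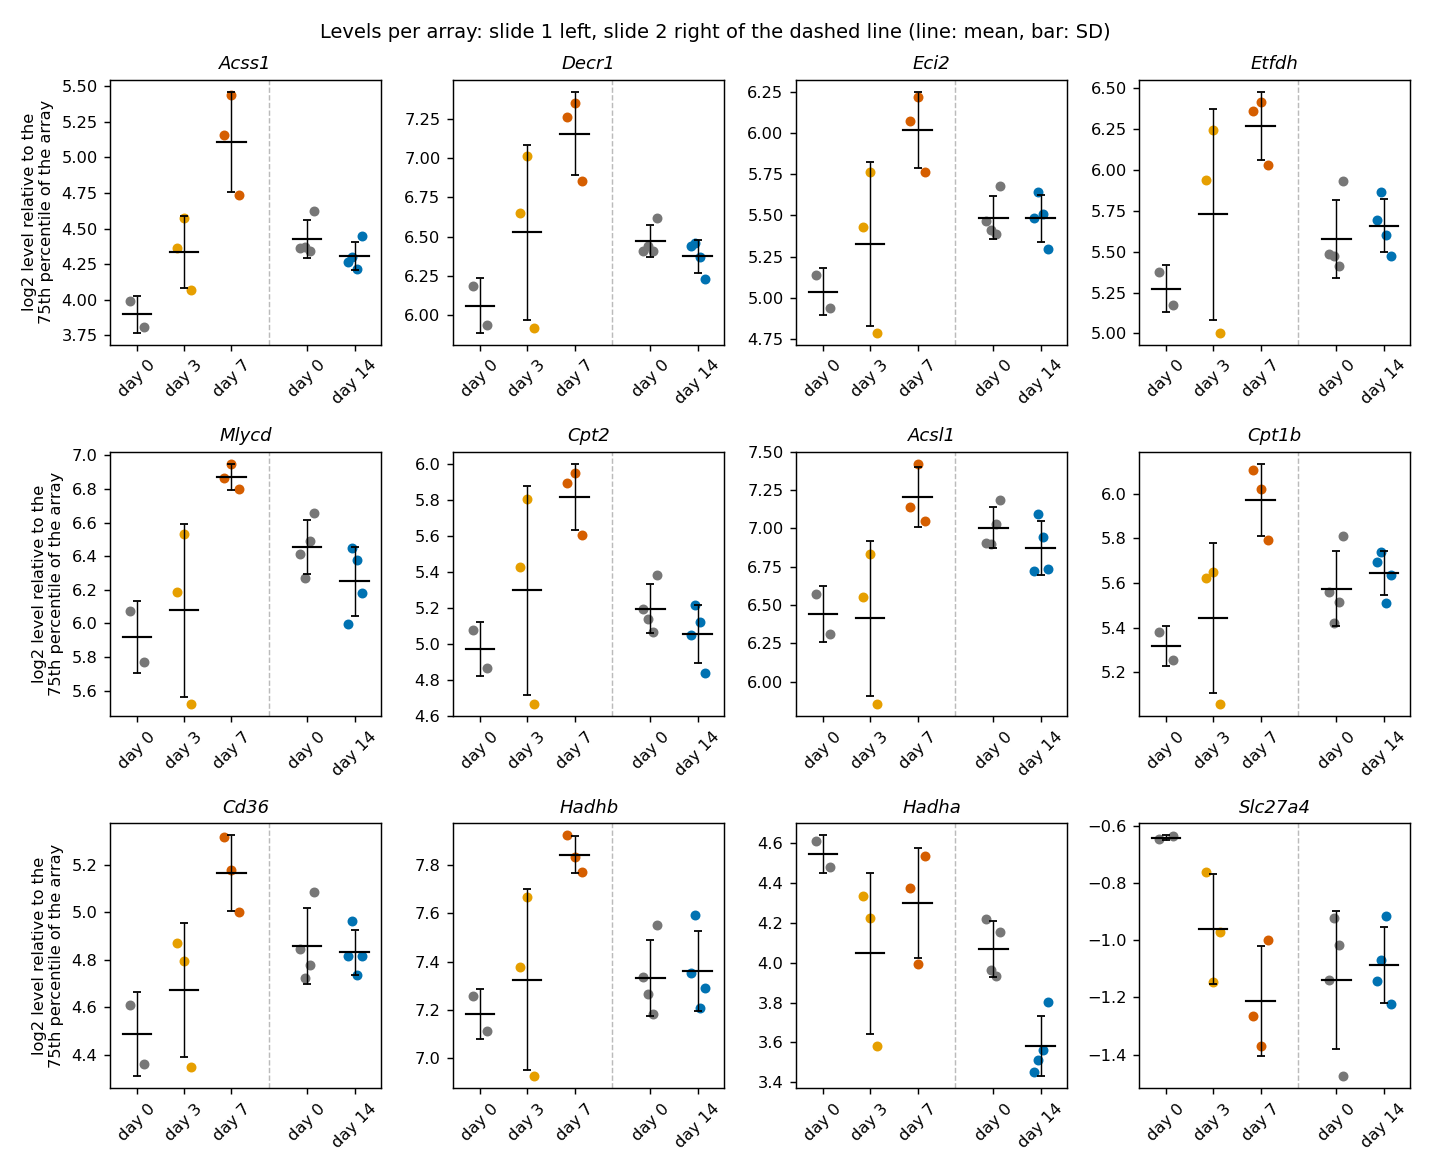
Log2 level relative to the 75th percentile of the array (y axis, a different range in each panel) of 12 genes on the 8 arrays of slide 1 and the 8 of slide 2; points are arrays, horizontal lines are means and bars are SD. Day 7 lies above day 0 on slide 1 in each panel other than Hadha, where they overlap, and Slc27a4, where it lies below. All panels but Hadha show genes that passed at day 7 against day 0, so this separation is no further test. The share of all features that separate in this way was not counted. On slide 2 days 14 and 0 overlap in each panel other than Hadha.

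Of the 5 acyl-CoA dehydrogenases, which open each turn for chains of a given length, only Acadvl passed. Acadvl acts on very long chains at the inner membrane. Its level was 7.87 and 7.69 at day 0, 8.28, 8.48 and 7.54 at day 3 and 8.54, 8.52 and 8.32 at day 7 on slide 1. All day 7 samples lay above both day 0 samples, while 1 day 3 sample lay within the day 7 range (difference 0.66 ± 0.21, adjusted p = 0.0338). Its difference was 0.32 without the day 0 arrays of slide 1 and 0.45 without the slide term, and did not pass in either. On slide 2 it was 8.11, 8.31, 8.19 and 8.06 at day 14, against 8.14, 8.05, 8.0 and 8.35 at day 0, overlapping. Acadl, the long-chain enzyme, read 4.97 and 4.80 at day 0, 5.08, 5.25 and 4.38 at day 3 and 5.43, 5.31 and 5.22 at day 7 (day 7 minus day 0, 0.42 ± 0.20, adjusted p = 0.148). It passed without the slide term, at 0.52, and without the day 0 arrays of slide 1, at 0.57. On slide 2 it was 4.51, 4.77, 4.61 and 4.55 at day 14, against 4.74, 4.68, 4.598 and 4.97 at day 0, overlapping.

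Acadm, the medium-chain enzyme, was at 7.24 and 6.92 at day 0, 7.42, 7.51 and 6.42 at day 3 and 7.73, 7.48 and 7.48 at day 7 on slide 1. The day 7 samples lay above both day 0 samples, and the difference did not pass (0.47 ± 0.25, adjusted p = 0.182). Slide 2 gave 6.88, 7.04, 6.93 and 6.98 at day 14, against 7.20, 7.04, 6.95 and 7.39 at day 0, overlapping. Acads, the short-chain enzyme, was the member with the lowest day 14 difference from day 0, at 1.45, 1.32, 1.79 and 1.73 at day 14, against 2.55, 2.42, 2.12 and 2.27 at day 0. The 2 groups did not overlap, and the difference of -0.77 ± 0.19 (SE, adjusted p = 0.0751) did not pass. It passed without the slide term, at -1.06, and without day 3 RNA sample 4, at -0.77. Acadsb, which acts on branched short chains, did not pass on any day.

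The hydration, second dehydrogenation and cleavage steps had 3 of 8 genes higher at day 7 (median 0.28), beside 15.6% of all features. All of their probes but that of Hadha had a mean level above 5. Of all features above that level 32.4% were higher, with a median of 0.26, close to the values of this group. The 3 genes were the thiolase Acat1 (0.70 ± 0.16, adjusted p = 0.0103), Hadhb (0.65 ± 0.18, adjusted p = 0.021) and the short-chain dehydrogenase Hsd17b10 (0.51 ± 0.15, adjusted p = 0.0276). Hsd17b10 lost its call without the day 0 arrays of slide 1, at 0.138, and without the slide term, at 0.27. Hadha and Hadhb, whose windows are printed above, form 1 enzyme complex, Hadha with the hydratase and dehydrogenase and Hadhb with the thiolase. Their values are set side by side here after they were seen.

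Hadhb was at 7.26 and 7.11 at day 0, 7.38, 7.67 and 6.92 at day 3 and 7.93, 7.84 and 7.77 at day 7 on slide 1. The 3 day 7 samples were the highest of the slide. Hadha was at 4.61 and 4.48 at day 0, 4.33, 4.22 and 3.58 at day 3 and 4.37, 4.00 and 4.54 at day 7 there, with overlap between days 7 and 0 (difference -0.23 ± 0.20, adjusted p = 0.442). On slide 2 Hadhb was 7.35, 7.60, 7.21 and 7.29 at day 14, against 7.34, 7.26, 7.18 and 7.55 at day 0, overlapping (difference 0.03 ± 0.14, adjusted p = 0.935). Hadha on that slide was 3.45, 3.51, 3.56 and 3.80 at day 14, against 4.22, 3.97, 3.94 and 4.15 at day 0, with all day 14 samples below all day 0 samples, and its difference did not pass (-0.49 ± 0.16, adjusted p = 0.137). Whether the 2 genes differ in their response was not tested. In the day 0 RNA run on both slides, slide 2 minus slide 1 was -0.45 for the Hadha probe and 0.12 for the Hadhb probe. The other 5 genes of these steps (Acaa2, Acaa1a, Echs1 and Hadh beside Hadha) had day 7 differences of -0.23 to 0.33, none of which passed.

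The auxiliary enzymes bring unsaturated chains into a form the main enzymes can use. They had 2 of 4 genes higher at day 7 (median 0.62), beside 15.6% of all features and 32.4% of those with a mean level above 5. Decr1, the mitochondrial dienoyl-CoA reductase, was at 6.18 and 5.94 at day 0, 6.65, 7.01 and 5.92 at day 3 and 7.27, 7.35 and 6.85 at day 7. A single day 3 sample lay within the day 7 range, and all day 7 samples lay above both day 0 samples (difference 1.08 ± 0.24, adjusted p = 0.00758, range over 24 alternatives 0.00191 to 0.107). On slide 2 it was 6.44, 6.46, 6.37 and 6.23 at day 14, against 6.41, 6.44, 6.41 and 6.62 at day 0, overlapping (difference -0.10 ± 0.19, adjusted p = 0.817). Eci2, an enoyl-CoA isomerase, read 5.14 and 4.93 at day 0, 5.43, 5.77 and 4.79 at day 3 and 6.08, 6.22 and 5.76 at day 7. Here too the day 7 samples lay above both day 0 samples (difference 0.96 ± 0.22, adjusted p = 0.00888). Slide 2 gave 5.48, 5.65, 5.51 and 5.30 at day 14, against 5.47, 5.41, 5.39 and 5.68 at day 0 (difference -0.003 ± 0.18, adjusted p = 0.995). Eci1 and Ech1 had day 7 differences of 0.22 and 0.27 and did not pass, but Eci1 passed without the day 0 arrays of slide 1, at 0.62.

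In the electron transfer group, Etfdh hands electrons from the flavoprotein to ubiquinone. Its slide 1 levels were 5.38 and 5.17 at day 0, 5.94, 6.25 and 5.01 at day 3 and 6.36, 6.42 and 6.03 at day 7. Day 3 spanned the widest range of the 3 days, and all day 7 samples lay above both day 0 samples (difference 0.95 ± 0.28, adjusted p = 0.0244). Slide 2 showed 5.70, 5.86, 5.60 and 5.48 at day 14, against 5.48, 5.47, 5.42 and 5.93 at day 0, overlapping. Etfa and Etfb, the flavoprotein subunits, had day 7 differences of 0.49 ± 0.19 (SE, adjusted p = 0.0752) and 0.35 ± 0.18 (SE, adjusted p = 0.173) and did not pass.

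Acss1 makes acetyl-CoA from acetate in the mitochondrial matrix. It was at 3.99 and 3.81 at day 0, 4.36, 4.57 and 4.07 at day 3 and 5.15, 5.43 and 4.74 at day 7 on slide 1. All 3 day 7 samples lay above every other array of the slide, and the difference from day 0 was 1.19 ± 0.18 (SE, adjusted p = 0.00241). Over 24 alternatives its adjusted p was 0.000233 to 0.0642, and it missed the threshold in 1 of them. On slide 2 it was 4.26, 4.298, 4.22 and 4.45 at day 14, against 4.37, 4.37, 4.34 and 4.62 at day 0, overlapping (difference -0.12 ± 0.15, adjusted p = 0.684). Acot13, an acyl-CoA thioesterase, had a day 7 difference of 0.58 ± 0.24 (SE, adjusted p = 0.0902) and did not pass.

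Day 14 against day 7 asks how the week at the held oxygen level differed from the end of the lowering phase. Of the 33 genes, 3 were lower and 0 higher, against 1.18% of all features lower and 1.12% higher. They were Acss1 (-1.30 ± 0.21, adjusted p = 0.0181), Decr1 (-1.17 ± 0.28, adjusted p = 0.0449) and Mlycd (-1.11 ± 0.26, adjusted p = 0.046); their day 7 differences from day 0 are given above. The median difference was -0.52, against -0.04 over all features. Of the 33 differences, 31 were below 0 and 2 above, where 46.5% of all features were above 0. This comparison shares the day 7 samples with that against day 0, and its days lie on different slides that only the day 0 RNA joins. Acss1 and Decr1 also passed without the slide term and without the day 0 arrays of slide 1, at -0.80 and -0.78 in both. Mlycd, at -0.62 in both, passed in the second only.

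Leaving out day 3 RNA sample 4 gave 12 lower genes, with 2.54% of all features lower and 1.9% higher. Leaving out either the second of day 3 or the last of day 7 (RNA sample 4) gave 5, with 3.14% and 5.46% of all features called in either direction. Leaving out the first or the second day 0 RNA sample, or the first of day 7, gave 0, with 0.411%, 0.0181% and 0.23% of all features. Each of the other 8 RNA samples left out gave 1, with 0.398% to 1.75%. In 2 of the slide treatments more of the 33 genes passed, and so did more of all features. Without the slide term 9 were lower (3.7% of all features lower and 7.95% higher), and 10 were lower without the day 0 arrays of slide 1 (6.31% and 12.6%). The carnitine carrier Slc25a20 had the lowest difference in both, -1.11, beside -0.62 ± 0.285 (SE, adjusted p = 0.221) with all arrays and the slide term. In the day 0 RNA run on both slides, slide 2 minus slide 1 was -0.49 for this gene.

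Day 14 against day 0 lies within slide 2 and asks what remained of any change after the second week. By limma 4 of the 33 genes (Acads, Hadha, Slc25a20 and Ech1) had an unadjusted p under 0.05, all lower, and none passed after adjustment. The lowest differences were those of Acads, given above, Slc25a20 (-0.55 ± 0.20, adjusted p = 0.152), Crat (-0.52 ± 0.25, adjusted p = 0.246) and Hadha. For Slc25a20 the levels were 1.64, 1.79, 2.08 and 1.77 at day 14, against 2.30, 2.45, 2.24 and 2.48 at day 0, without overlap. Of the 33 differences 12 were above 0 and 21 below, where 58.5% of all features were above 0, and the median over all features was 0.06. On slide 2 the day 14 arrays were the dimmer ones, with a 75th percentile of 49.1 to 67.11 intensity units, against 67.14 to 77.0 on the day 0 arrays.

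**Figure D4:**
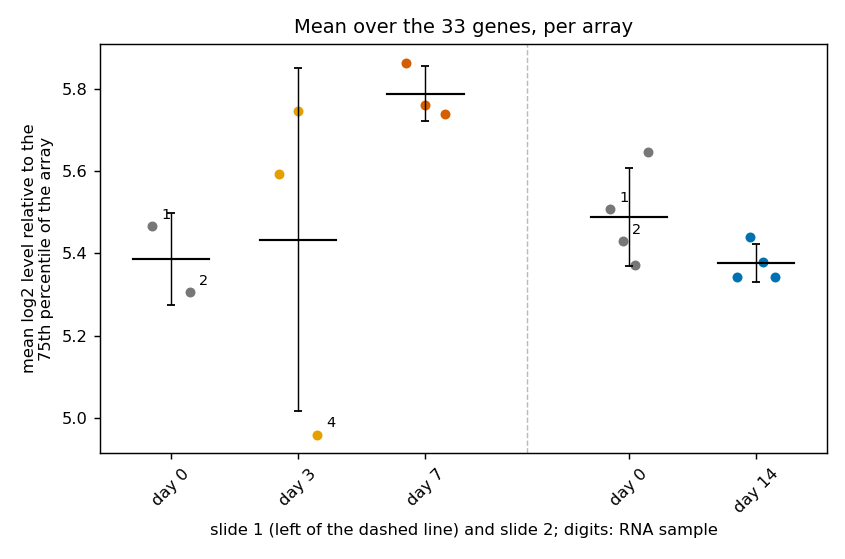
Mean log2 level of the 33 genes on each array (y axis, relative to the 75th percentile of the array), by day and slide; points are arrays, lines are means, bars are SD, and the digits name RNA samples. The 3 day 7 arrays lie at 5.74 to 5.86, day 3 RNA sample 4 lies at 4.96, below all others, and the 4 day 14 arrays lie at 5.34 to 5.44.

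Day 3 against day 0 covers the early part of the lowering phase. It had 0 of 33 genes past the threshold, against 2.27% of all features higher and 3.82% lower (limma; 4 genes had an unadjusted p under 0.05, 1 higher and 3 lower). The median was 0.09, against 0.06 over all features. The day 3 samples disagreed: RNA sample 4 lay below both others in 32 of the 33 genes, with a median gap to their mean of -0.71. Over all features it lay below both in 49.8%, with a median gap of -0.10. Averaged over the 33 genes, the day 3 samples stood at 5.59, 5.75 and 4.96 (sample 4).

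Because RNA sample 4 was singled out by its low values in these 33 genes, leaving it out must raise most of their day 3 differences. The counts without it are therefore a description and not a separate test. Without RNA sample 4, 5 of the 33 genes were higher at day 3 and 0 lower, with 3.8% and 3.78% of all features. The 5 were Etfdh at 0.78, Decr1 at 0.75, Cpt2 at 0.63, Acadvl at 0.58 and Acat1 at 0.39 on the log2 scale. In RNA sample 4 the mitochondrial lists were lower too. It lay below both other day 3 samples in 18 of 18 citric acid cycle genes (median gap -0.60) and in 20 of 20 respiratory chain genes (-0.59). The macrophage markers went the other way, with 0 of 8 below both others and a median gap of 1.36. The 10 adipocyte markers measured were all lower (-0.69). The part of these differences in the day 3 result was not tested.

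Day 7 against day 3, both on slide 1, had 0 of 33 genes past the threshold, against 0.447% of all features higher and 0.23% lower. By limma 13 genes had an unadjusted p under 0.05, all higher, and the share of all features at that cut was not counted. Of the differences 29 were above 0 and 4 below, where 57.8% of all features were above 0. The median was 0.38, against 0.05 over all features. Mlycd (0.79 ± 0.21, adjusted p = 0.101), Acsl1 (0.79 ± 0.21, adjusted p = 0.101) and Acss1 (0.78 ± 0.17, adjusted p = 0.0562) had the highest values. Without day 3 RNA sample 4, which was singled out by its low values in these genes, the median was 0.08 and 0 genes passed, with 0.194% of all features. Leaving out day 3 RNA sample 2 gave 4 higher genes, with 1.01% of all features called in either direction, and leaving out day 7 RNA sample 4 gave 1, with 1.22%.

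The probe's brightness moved with the day 7 difference. Of the 33 probes, 23 had a mean level above 5, with a median difference of 0.51 and 11 higher. Over all 1800 features as bright, the median was 0.26, and 32.4% were higher and 11.2% lower. The 10 dimmer probes had a median of -0.06, with 2 higher and 1 lower, against 0.07 over all 20326 dimmer features, 14.1% of them higher and 7.87% lower. For 8 genes the array held further probes, 9 in all. For Cpt1b, Decr1 and Fabp3 the further probe differed upward between days 7 and 0 on slide 1 as the chosen one did, by 0.30, 0.45 and 0.26. For Acsl1, Lpl, Cpt2, Etfa and Etfb the dimmer probes differed by -0.56 to -0.06, where the brightest differed by 0.25 to 0.85. The part of brightness in the results was not tested.

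Beyond the 33, a list of 47 other genes of the pathway was measured in full. At day 7 against day 0, 6 were higher and 4 lower, beside the background of 15.6% and 8.14% of all features, with a median of 0.28. Pdk4, a kinase that inhibits pyruvate dehydrogenase, rose by 1.18 ± 0.34 (SE, adjusted p = 0.0249) and Acsl4, another acyl-CoA synthetase, by 0.94 ± 0.19 (adjusted p = 0.00508). Ehhadh, an enzyme of the peroxisomal pathway, rose by 0.77 ± 0.26, Acacb, which makes malonyl-CoA, by 0.69 ± 0.16, and Ivd, which acts on a leucine product, by 0.47 ± 0.16. The genes that fell were Got2 (-0.52), Acsl5 (-0.49), the lipid droplet coat gene Plin2 (-0.38) and Ppard (-0.35), a nuclear receptor for fatty acids.

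At day 14 against day 7, Pdk4 fell by 1.69 (adjusted p = 0.0449) and Ehhadh fell by 1.35 (adjusted p = 0.0377), while Acsl5 and Gpihbp1, which anchors lipoprotein lipase on capillaries, rose by 0.72 and 0.88. At day 14 against day 0, Fabp5, a fatty acid binding protein, was the only one of the 47 that passed (0.70 ± 0.13, SE, adjusted p = 0.0398), and at day 3 Got2 was (-0.56 ± 0.13). At day 7 against day 3, 0 of the 47 passed by limma, and 18 had an unadjusted p under 0.05. Of 3 other regulators of the pathway beside Ppard, none passed at day 7: Ppara differed by -0.14, Ppargc1a by 0.21 and Esrra by 0.07.

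Some other mitochondrial genes were higher at day 7 against day 0 as well, where 15.6% of all features were higher and 8.14% lower. Of 18 citric acid cycle genes 4 were higher and 0 lower (median 0.29), with Fh1 at 0.74 and Mdh2 at 0.64. Of 20 respiratory chain genes 5 were higher and 0 lower (median 0.30), with Uqcrfs1 at 0.75 and Atp5c1 at 0.73. At day 14 against day 0, 0 of either list passed by limma (0 and 2 had an unadjusted p under 0.05), with medians of 0.03 and 0.10. Of 12 glycolytic genes, 2 were higher at day 7 (Ldha and Gpi1) and 2 lower (Pkm and Tpi1), with a median of 0.08. The citric acid cycle and respiratory chain lists had medians of 0.29 and 0.24 at day 7 against day 3. At day 14 against day 7 their medians were -0.30 and -0.20. In these comparisons and at day 7 against day 0, the medians of both lists lay between those of the 33 genes and of all features. Whether the lists differ was not tested.

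Some markers of muscle and of other cells also passed at day 7 against day 0, where 15.6% of all features were higher and 8.14% lower. Of 10 muscle markers 3 were lower (Casq2, Tnni1 and Tnnc1), with summed levels of 13.12 to 13.15 at day 7 and 13.21 to 13.27 at day 0 on slide 1. Of 9 fast fibre genes 1 was higher (Pvalb, 1.65), with summed levels of 12.50 to 12.90 at day 7 and 12.37 to 12.55 at day 0. The fast fibre median was 0.23, with Myh4 the highest, at 3.63 ± 1.575 (SE, adjusted p = 0.1125), and Atp2a1 the lowest, at -0.82. At day 3 against day 0 Myh4 differed by 5.155 ± 1.575 (adjusted p = 0.0683). It passed in neither comparison. Of 10 macrophage markers 8 were tested and 5 of them were lower (median -1.01), with summed levels of 6.21 to 6.24 at day 7 and 6.73 to 6.79 at day 0, and Cd163 was above background on 1 array. Of 12 endothelial markers 2 were higher and 2 lower, with summed levels of 7.65 to 7.82 at day 7 and 7.30 to 7.34 at day 0.

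Fat cells hold many of these transcripts, among them Cd36, Lpl and Acsl1. Of 12 adipocyte markers 10 were measured and 0 passed in any comparison by limma (an unadjusted p under 0.05 was seen for 1 to 5, depending on the comparison), with summed levels of 8.09 to 8.74 at day 7 and 7.96 to 8.11 at day 0 on slide 1. The median over the 10 adipocyte markers was 0.52 at day 3, 0.36 at day 7 and -0.22 at day 14 against day 0. It was -0.285 at day 7 against day 3 and -0.46 at day 14 against day 7. Ucp1 was above background on 0 arrays and Lep on 2. At day 14 against day 0, 3 of the 4 red blood cell genes tested were higher (median 1.73), beside 0.294% of all features. Their summed levels were 9.18 to 10.19 at day 14 and 7.62 to 8.14 at day 0 on slide 2. The adipocyte list shares Fabp4 and Lipe, and the endothelial list Gpihbp1, with the list of other pathway genes. The part of these cells in the results for the 33 genes was not tested.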

How the data were processed

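RNA was extracted, labelled with Cy3 and hybridised, per the labels' protocols. Agilent Feature Extraction 11.0.1.1 (submitters' processing notes) turned the scans into the deposited spot intensity, which is linear and background-subtracted per the file headers and has no scaling across arrays. A deposited value table of the series holds a further intensity on a linear scale, with column medians of 45.1 to 46.4. Its processing is not given in the sources used here, and it entered 1 alternative.

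There were 62976 spots per array (59305 without controls), none saturated. The precision is limited by the number of arrays. Processed intensities were log2-transformed and reduced by the 75th percentile of the array's non-control spots. Spots with an outlier mark were left out, and spots of a probe were averaged. Of 55681 probes, 37 without a value on some array were dropped, and 27637 (49.7%) were named through RefSeq transcripts. Probes that read well above background on 3 or more of 16 arrays were kept, and the brightest stood for its gene, giving 22126 features (14088 named). The rule was the same for all genes, and where a gene's probes disagree, this is said in the text.

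Days were compared with limma 3.58.1 (statmod 1.5.0, R 4.3.3), 2-sided, with fixed terms for day and slide and a random block for the RNA sample (correlation 0.448, 11 residual and 2.45 prior degrees of freedom), so that RNA run on both slides counted as 1 replicate. Benjamini-Hochberg adjustment covered all 22126 features of a comparison. The model was tested on simulated data. Figures were drawn with Matplotlib 3.10.9 in Python 3.11.15 from tables made with pandas 2.3.3 and NumPy 2.4.6.

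The 33 genes, the further lists and the tests were chosen with earlier results of these data known. Full values are given for up to 6 called genes per direction and comparison with the highest absolute difference, and for Cpt1b, Cd36, Lpl, Fabp3, Acadm, Acadl, Acadvl, Hadha and Decr1. The other genes are given by counts and ranges, and further names were chosen after their values were seen. Alternatives covered the slide, normalization, dim-probe filter, probe choice, series table, replicate number and each RNA sample. The normexp alternative used the median spot signal (offset 50), in place of the mean signal first planned. 1 gene of the list of other pathway genes is counted but not reported here by name.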

Additional observations from a re-analysis of the deposited data

Results flagged for a closer look

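In 66 groups of 4 arrays on slide 2 (the day 14 and day 0 samples of each of the 33 genes), 4 held a sample far from the other 3, with a gap to its nearest neighbour that exceeded Dixon's critical share of the group's range. Chance gives such a gap in about 1 group in 20. All 4 groups were day 0 samples. In RNA sample 4, Decr1 was at 6.621, against 6.407 to 6.441 in the other 3, Etfdh at 5.930, against 5.415 to 5.483, and Acss1 at 4.621, against 4.341 to 4.372. In RNA sample 3, Fabp3 was at 9.596, against 9.770 to 9.792. Averaged over the 33 genes, day 0 RNA sample 4 was also the highest array of slide 2, at 5.65. Groups of 2 or 3 arrays, which include all those of slide 1, were not examined in this way.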

How the results depend on the processing

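No called gene changed sign under any alternative run. Of the 17 calls of a single gene, taken over the alternatives, those that changed the processing left 117 results past the threshold and 50 not, and those that left out 1 RNA sample left 174 and 64. The count of called genes moved by more than 1.5 times as follows, with the causes not tested; the percentage beside each count is the share of all features called in the same setting. At day 3 against day 0 (0, 6.09%) it was 3 with normexp and quantile normalization (11%), 1 with probes above background on all arrays (17.7%), and 0 to 5 with 1 RNA sample left out (0.0452% to 7.73%). At day 7 against day 0 (14, 23.8%) it was 9 without the slide term (14.8%), 1 on slide 1 alone with 8 arrays (9.46%), 5 without the day 0 arrays of slide 1 (17.5%), and 0 to 20 with 1 RNA sample left out (0.466% to 26.2%). At day 14 against day 0 (0, 0.402%) it was 3 without the slide term (14%), 3 with normexp (3.68%), 1 with probes above background on all arrays (2.82%), 1 in the series table (3.05%), and 0 to 1 with 1 RNA sample left out (0.0136% to 0.99%). At day 7 against day 3 (0, 0.678%) it was 1 with normexp (1.53%), 3 with probes above background on all arrays (2.95%), 1 in the series table (0.836%), and 0 to 4 with 1 RNA sample left out (0.127% to 1.22%). At day 14 against day 7 (3, 2.3%) it was 9 without the slide term (11.7%), 10 without the day 0 arrays of slide 1 (18.9%), 9 with normexp (5.69%), 8 with probes above background on all arrays (11.2%), 1 without a filter on dim probes (0.771%), 1 with the mean over probes (1.79%), 6 in the series table (3.65%), and 0 to 12 with 1 RNA sample left out (0.0181% to 5.46%). Without day 0 RNA sample 1 or 2, the correlation of 0.448 was carried over, since it could not be estimated from the 1 sample then left on both slides.

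Among samples of different days, 19 pairs with the same replicate number correlated in their deviations from the day means at -0.159 to 0.169 (6 over 0.1), and the other 54 pairs at -0.203 to 0.191 (7 over 0.1). Nothing in the labels says that a number marks a shared source, and not every same-numbered pair was over 0.1, so the samples were not treated as paired. The replicate block gave 1 called gene at day 3 against day 0 (6.05% of all features) and 5 at day 14 against day 7 (5.17%), and it moved no other count by more than 1.5 times.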
